A study of Mus musculus with 8 samples.

Results

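The 7 genes described here are 4 chemokines that bring lymphoid progenitors and thymocytes to thymic epithelial cells (TECs), *Ccl25*, *Cxcl12*, *Ccl21a* and *Ccl19*, and 3 atypical chemokine receptors, *Ackr2*, *Ackr3* and *Ackr4*. They were chosen by name, with earlier results of these data known, and all 7 were found among the 56923 genes of the count files. The study cultured mouse TECs in different ways and compared them with the native cells by bulk RNA sequencing, with 2 biological replicates in each of 4 groups. All cells came from thymi of E16.5 C57BL/6J embryos, were wild type (WT) with the treatment given as none, and were sorted for the epithelial marker EpCAM after enzymatic digestion. *In vivo* TECs were lysed straight after sorting. 2D-cultured TECs were grown for 3 days on laminin, and organoids were grown in Matrigel and collected at day 3 (D3) or day 7 (D7). Every culture received the same organoid medium with FGF7, and none of the cultures held added thymocytes or mesenchyme. In organoid culture the medium also held the compound thiazovivin for the first 2 days. The study does not say separately whether the 2D cultures received it.

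Chemokines are small secreted proteins that guide migrating cells through G protein-coupled receptors. CCL25, CXCL12 and the CCL19 and CCL21 pair act through CCR9, CXCR4 and CCR7, and together they draw blood-borne progenitors into the thymus and then move thymocytes between cortex and medulla. Atypical receptors bind chemokines without starting the usual G protein signal and carry them into the cell for degradation. ACKR3 takes up CXCL12, ACKR4 takes up CCL19, CCL21 and CCL25, and ACKR2 takes up inflammatory CC chemokines.

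The libraries were made from the 3′ ends of transcripts, and the totals were between 5084715 and 7612532 counts. Counts are of reads, which are not independent molecules. Levels are given as raw counts and as CPM, counts brought to a common library size after TMM scaling, in which transcript length plays no part. A gene was tested if it reached 1 CPM in at least 3 of the 8 libraries. This held for 14504 genes and for 5 of the 7 members, all except *Ccl19* and *Ackr2*. Fold changes and p-values come from a quasi-likelihood test in edgeR, and the p-values were adjusted by the Benjamini-Hochberg method over all genes tested, with a threshold of 0.05. With 2 libraries against 2, an exact two-sided permutation test of a single gene cannot go below p = 0.333, so the calls rest on the spread shared across genes. All 9 markers of TEC identity were above 3 counts in every group. The summed level of 7 cortical markers was 7490 to 7654 CPM *in vivo*, 657 to 757 CPM in 2D, 188 to 199 CPM in D3 organoids and 842 to 876 CPM in D7 organoids. The 2D sum was mostly 1 gene, *Ctsl*, at a mean of 664 CPM, and only 3 of the 7 markers were above 3 counts there. *Ctsl* was at means of 127 CPM in D3 organoids and 263.5 CPM in D7 organoids. Of the 7 markers, 6 were higher in D7 organoids than in 2D (24.4% of all genes) and 1 was lower (21.1%). The sum of 12 thymocyte markers was 313.5 to 714 CPM *in vivo* and at most 13.7 CPM in any cultured library. In bulk samples such as these, fewer cells of a type and less RNA per cell cannot be told apart.

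The stretches of DNA before the starts of *Ccl25* and *Cxcl12* are shown because these genes were the most abundant homing chemokines of native TECs and because *Ccl25* is a known target of the transcription factor Foxn1. Both windows cover the 250 bases before a RefSeq transcript start in GRCm38.p6 and overlap no annotated exon. The *Ccl25* window lies at chr8:4349338-4349587 on the plus strand, before the downstream one of its annotated starts. Capitals mark the TATA-box letters TATAAA, which begin 16 bases before that start and occur in this form, on either strand, in 12.4% of 32841 mouse promoter windows of the same length. The *Cxcl12* window lies at chr6:117168285-117168534 on the plus strand. Capitals mark the letters GACGC, the core of the Foxn1 motif, read on the minus strand, and they begin 62 bases before the start. This core is present on either strand in 22.6% of the windows.
Ccl25: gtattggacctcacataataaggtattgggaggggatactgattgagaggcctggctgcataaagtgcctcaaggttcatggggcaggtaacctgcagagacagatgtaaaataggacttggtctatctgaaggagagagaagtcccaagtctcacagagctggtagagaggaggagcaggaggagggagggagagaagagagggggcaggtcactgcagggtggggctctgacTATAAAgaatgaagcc
Cxcl12: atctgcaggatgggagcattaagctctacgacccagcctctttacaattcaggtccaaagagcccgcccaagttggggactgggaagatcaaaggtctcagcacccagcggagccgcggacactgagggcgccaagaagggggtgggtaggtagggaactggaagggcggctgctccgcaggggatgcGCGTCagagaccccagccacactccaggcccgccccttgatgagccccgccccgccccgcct
The core was not found in the *Ccl25* window printed here. It was found once before the upstream start of *Ccl25*, on the plus strand and 56 bases before that start, in a window that overlaps exons of *Ccl25* and of *Elavl1*. Windows of the other 5 members did not hold it. A match is a description of the letters, and 3′ counts do not tell which start was used.

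*Ccl25*, the ligand of CCR9 and a product mainly of cortical TECs in the thymus, was the most abundant member *in vivo* and fell in every culture. It lies on chromosome 8 between 4374661 and 4540760 of GRCm39 on the plus strand. There it overlaps *Elavl1* on the other strand and further annotated genes on both strands. The 2 *in vivo* libraries held 4459 and 4903 reads. The 2D libraries held 54 and 40 reads, and D3 organoids held 30 and 17. D7 organoids held 669 and 346 reads, which placed them between the native cells and the other cultures with no overlap of any groups. Mean levels were 733.8 ± 59.8 CPM *in vivo*, 8.62 ± 1.69 CPM in 2D, 3.72 ± 1.90 CPM in D3 organoids and 75.7 ± 10.3 CPM in D7 organoids (SD, n = 2 each). The log2 fold change *in vivo* over 2D was 6.41 ± 0.25 (SE, edgeR adjusted p = 3.78e-12), an 84.8-fold difference. *In vivo* over D3 organoids it was 7.65 ± 0.27 (edgeR adjusted p = 3.68e-12). D7 organoids exceeded D3 organoids by 4.38 ± 0.26 on the log2 scale (edgeR adjusted p = 1.60e-08) and 2D by 3.13 ± 0.24 (edgeR adjusted p = 1.22e-08), yet remained 9.67-fold below native cells (edgeR adjusted p = 2.21e-09). Without D3 replicate 1 the values against D3 organoids became 8.26 for *in vivo* cells and 4.99 for D7 organoids. The order of levels was therefore *in vivo*, D7 organoids, 2D and D3 organoids. The last step was the least secure, since the log2 fold change of D3 organoids over 2D was -1.24 ± 0.31 (edgeR adjusted p = 0.00430) but the call was lost when only these 2 groups were fitted (-1.21, adjusted p = 0.0579), without 2D replicate 1 (-1.03, adjusted p = 0.0627) and without D3 replicate 2 (-0.75, adjusted p = 0.0862). Without D3 replicate 1 it was -1.85.

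*Cxcl12*, the ligand of CXCR4 that supports progenitor entry and early thymocytes in the cortex, was nearly as abundant as *Ccl25* *in vivo* but followed another course in culture. It lies on chromosome 6 between 117144945 and 117158328 of GRCm39 on the plus strand, with no other gene annotated over it. Its reads numbered 3304 and 4154 *in vivo* but 34 and 30 in 2D. D3 organoids held 1504 and 1887 reads, and D7 organoids held 2154 and 1219. In scaled levels these were 580.5 ± 7.63 CPM *in vivo*, 5.88 ± 0.43 CPM in 2D, 259 ± 6.82 CPM in D3 organoids and 254 ± 18.5 CPM in D7 organoids (SD, n = 2 each). The 2 libraries of a group were close together, the 2D libraries stood far below all others, and both organoid groups lay between. The log2 fold change *in vivo* over 2D was 6.62 ± 0.20 (edgeR adjusted p = 2.46e-13), a 98.4-fold difference. Organoids exceeded 2D by 5.46 ± 0.19 at day 3 (edgeR adjusted p = 5.13e-12) and by 5.43 ± 0.19 at day 7 (edgeR adjusted p = 2.40e-12). They were lower than native cells by 2.24-fold at day 3 (edgeR adjusted p = 7.48e-06) and 2.28-fold at day 7 (edgeR adjusted p = 5.66e-06). The days overlapped and differed by -0.03 ± 0.14 (edgeR adjusted p = 0.924), a difference whose sign turned with the filter on low counts.

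Set against each other within a library, the 2 main ligands kept a similar ratio in native and 2D-cultured cells although both were low in 2D. There were 0.741 and 0.847 *Cxcl12* reads for each *Ccl25* read *in vivo*, and 0.630 and 0.750 in 2D. D3 organoids stood apart with 50.1 and 111, and D7 organoids had 3.22 and 3.52. The D3 organoids thus held *Cxcl12* at a level near that of D7 organoids with almost no *Ccl25*, and the ratio moved towards that of native cells at day 7.

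**Figure D1:**
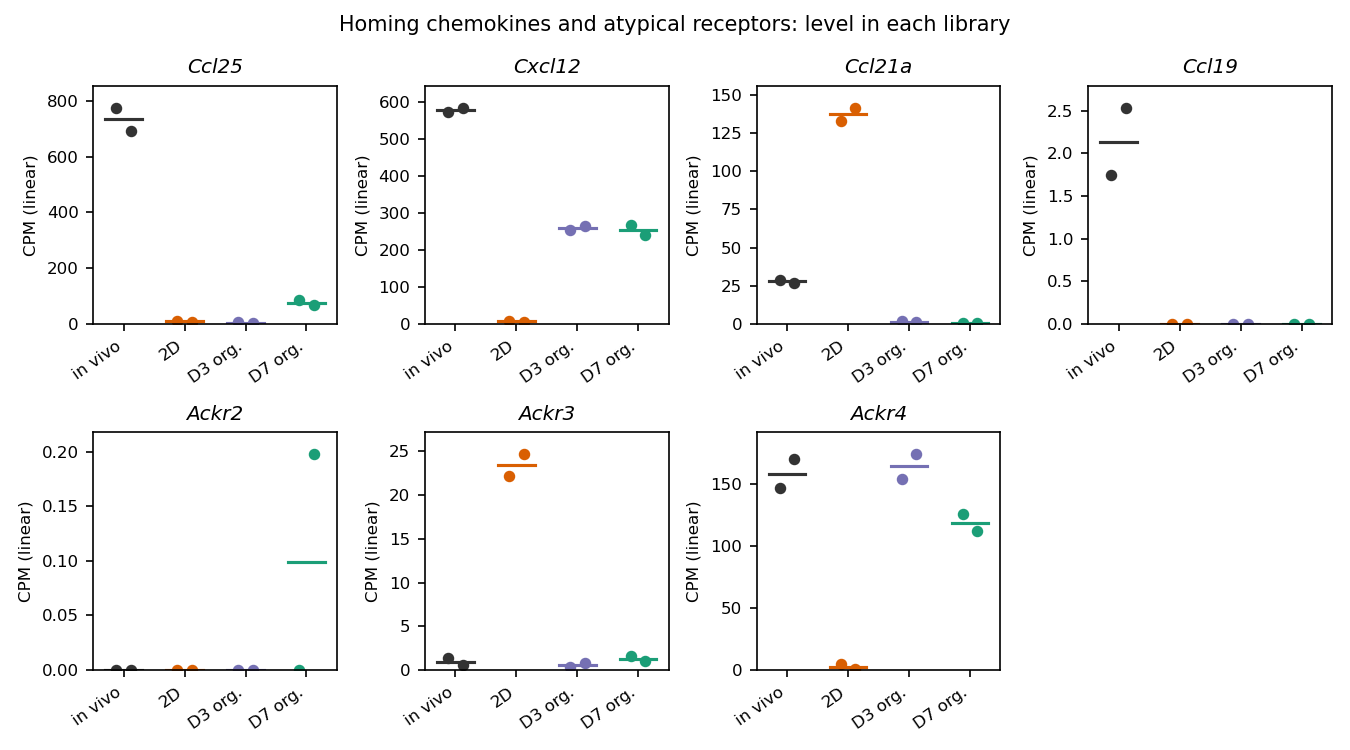
Level of each member in the 8 libraries, in CPM on linear axes that start at 0 and differ between genes. Points are single libraries and horizontal lines are group means (n = 2). *Ccl25*, *Cxcl12* and *Ackr4* are low in 2D, while *Ccl21a* and *Ackr3* are highest there.

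*Ccl21a*, a ligand of CCR7 made in the thymus mainly by medullary TECs, ran against the other ligands in 2D. Like them, it was lower in organoids than *in vivo*. It lies on chromosome 4 between 42772859 and 42773995 of GRCm39 on the minus strand and overlaps *4930578G10Rik* on the other strand. The 2D libraries held 734 and 765 reads, and the native cells 165 and 190. Only 9 and 7 reads were found in D3 organoids, and 4 and 1 in D7 organoids. The order was 2D, *in vivo*, then the organoids, with no overlap. In 2D the level was 4.96-fold that *in vivo* (log2 fold change *in vivo* over 2D -2.31 ± 0.20, edgeR adjusted p = 6.95e-08), whereas *in vivo* cells exceeded D3 organoids by 4.48 ± 0.30 on the log2 scale (edgeR adjusted p = 5.53e-09). The step from D3 to D7 organoids did not pass the test (-1.64 ± 0.60, edgeR adjusted p = 0.0616). The summed level of 10 medullary markers was also highest in 2D, at 2716 to 2834 CPM against 479 to 522 CPM *in vivo*, and this sum in 2D was mostly the keratin genes *Krt5*, *Krt14* and *Krt17*, at means of 694, 983 and 1073 CPM. Of 7 medullary markers tested, these 3 were higher in 2D (19.9% of all genes) and 2 were higher *in vivo* (21.7%). The latter were *Tnfrsf11a* (17.6 CPM *in vivo* and 3.30 CPM in 2D) and *Cd40* (23.1 and 8.16 CPM). *Aire* and *Fezf2* were at 0 counts in 2D. The parathyroid forms beside the thymus and expresses *Ccl21a* in the embryo. Its marker sums were 92.5 to 127 CPM *in vivo* but 2.23 to 3.27 CPM in 2D. The *in vivo* sum was mostly *Pth* and *Chga*, at means of 59.0 and 49.7 CPM. *Gcm2* held only 2 and 3 reads *in vivo* and 0 in 2D, too few to show a drop. Lymphatic endothelium is another source of *Ccl21a*. The sum of its 3 markers was highest in 2D, at 10.8 to 13.3 CPM. There *Prox1* held 26 and 31 reads, *Flt4* 43 and 26 and *Lyve1* 4 and 1. The cells had been sorted for EpCAM with the endothelial marker CD31 in the stain. The sum of 6 endothelial markers was 4.70 to 5.22 CPM *in vivo* and 0.546 to 0.557 CPM in 2D. Among them *Pecam1* held 21 and 37 reads *in vivo* and 3 and 3 in 2D, and *Cdh5* and *Tie1* held 0 in all 8 libraries. The part of these cells in the *Ccl21a* level was not tested.

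*Ccl19*, the other ligand of CCR7, had reads only *in vivo*, at a low level. The gene is on chromosome 4 between 42754525 and 42756577 of GRCm39 on the minus strand, close to *Ccl21a*. It also overlaps *4930578G10Rik* on the other strand. The *in vivo* libraries held 10 and 18 reads, or 2.14 ± 0.56 CPM (SD, n = 2), and all 6 cultured libraries held 0. Taking 3 counts per library as the floor of detection, *Ccl19* in 2D was at least 3.88-fold lower than *in vivo*, in D3 organoids at least 4.62-fold lower and in D7 organoids at least 4.43-fold lower. *Ccl19* did not pass the filter on low counts. With no filter its edgeR adjusted p was 0.0335 against 2D, 0.0362 against D3 organoids and 0.0300 against D7 organoids. Mesenchyme also makes CCL19, and the sum of 9 mesenchymal markers was 48.0 to 48.2 CPM *in vivo*, 34.2 to 40.9 CPM in 2D, 22.2 to 26.5 CPM in D3 organoids and 73.6 to 81.3 CPM in D7 organoids. The D7 sum was mostly *Dcn*, at a mean of 52.3 CPM, and *Lum*, at 11.2 CPM, while *Pdgfrb* was at 6.21 CPM *in vivo* and 0.124 CPM in D7 organoids and *Col1a1* at 6.22 and 1.34 CPM. The stain used for sorting held PDGFRα and PDGFRβ, and the part of mesenchyme in the *Ccl19* reads was not tested.

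Both CCR7 ligands have near-identical copies in the mouse genome. Of the 50-base words in the last 500 bases of their transcripts, 58.7% for *Ccl21a* and 78.5% for *Ccl19* also occur in transcripts of such copies, and the 9 listed copies that are in the count files were at 0 counts in every library. How reads with more than 1 place in the genome were counted is not given in the sources used here, so the levels of *Ccl21a* and *Ccl19* are uncertain to that degree. No such word was shared for the other 5 members.

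*Ackr4*, the scavenger of CCL19, CCL21 and CCL25 that is known in the thymus from cortical TECs, was close to its native level in organoids and nearly lost in 2D. The gene spans a region of chromosome 9 between 103961356 and 104004132 of GRCm39 on the minus strand and overlaps *Acad11* on the other strand. The *in vivo* libraries held 842 and 1202 reads, D3 organoids 912 and 1243, and D7 organoids 1009 and 566. The 2D libraries held 26 and 5 reads. Mean levels were 158 ± 16.2 CPM *in vivo*, 164 ± 13.9 CPM in D3 organoids, 118.5 ± 9.38 CPM in D7 organoids and 2.83 ± 2.69 CPM in 2D (SD, n = 2 each). D3 organoids and native cells overlapped, D7 organoids lay somewhat lower, and 2D lay far below all others. *In vivo* cells exceeded 2D by 5.79 ± 0.33 on the log2 scale (edgeR adjusted p = 3.60e-10), which became 7.38 without 2D replicate 1 and 5.06 without 2D replicate 2. D3 organoids exceeded 2D by 5.84 ± 0.33 (edgeR adjusted p = 5.82e-10) and D7 organoids by 5.37 ± 0.33 (edgeR adjusted p = 1.12e-09). These became 7.44 and 6.97 without 2D replicate 1, and 5.11 and 4.64 without 2D replicate 2. The difference between *in vivo* cells and D3 organoids was -0.05 ± 0.23 (edgeR adjusted p = 0.892), and that between *in vivo* cells and D7 organoids was 0.41 ± 0.23 (edgeR adjusted p = 0.179). D7 organoids were 1.38-fold below D3 organoids, at -0.47 ± 0.23 (edgeR adjusted p = 0.168). This last difference passed the threshold with no filter (adjusted p = 0.0369), with limma-voom (adjusted p = 0.0424) and when only these 2 groups were fitted (adjusted p = 0.0370).

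*Ackr3*, the scavenger of CXCL12, was high in 2D, where its ligand was low. Its place is on chromosome 1 between 90131689 and 90144473 of GRCm39 on the plus strand, with no other gene annotated over it. The 2D libraries held 122 and 133 reads. In the other groups it was near the floor of detection, with 8 and 4 reads *in vivo*, 2 and 6 in D3 organoids and 13 and 5 in D7 organoids. The level in 2D was 23.4 ± 1.77 CPM against 0.978 ± 0.586 CPM *in vivo* (SD, n = 2 each), and the log2 fold change *in vivo* over 2D was -4.60 ± 0.56 (edgeR adjusted p = 3.97e-06). The corresponding values were -5.23 ± 0.59 for D3 organoids (edgeR adjusted p = 2.10e-06) and -4.11 ± 0.54 for D7 organoids (edgeR adjusted p = 8.86e-06). The first became -5.33 without *in vivo* replicate 1, and the value for D3 organoids became -6.01 without D3 replicate 2. Differences among native cells and organoids did not pass the test, with edgeR adjusted p = 0.581 for *in vivo* against D3 organoids, 0.609 for *in vivo* against D7 organoids and 0.289 between the organoid days. In both comparisons with *in vivo* cells the direction turned when 1 *in vivo* library was left out.

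*Ackr2*, the scavenger of inflammatory CC chemokines, was not detectable at this depth. Its place is on chromosome 9 between 121727421 and 121741249 of GRCm39. Of the 8 libraries, 7 held 0 reads and D7 replicate 2 held 1 read, and 3 counts correspond to 0.372 to 0.593 CPM depending on the library.

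**Figure D2:**
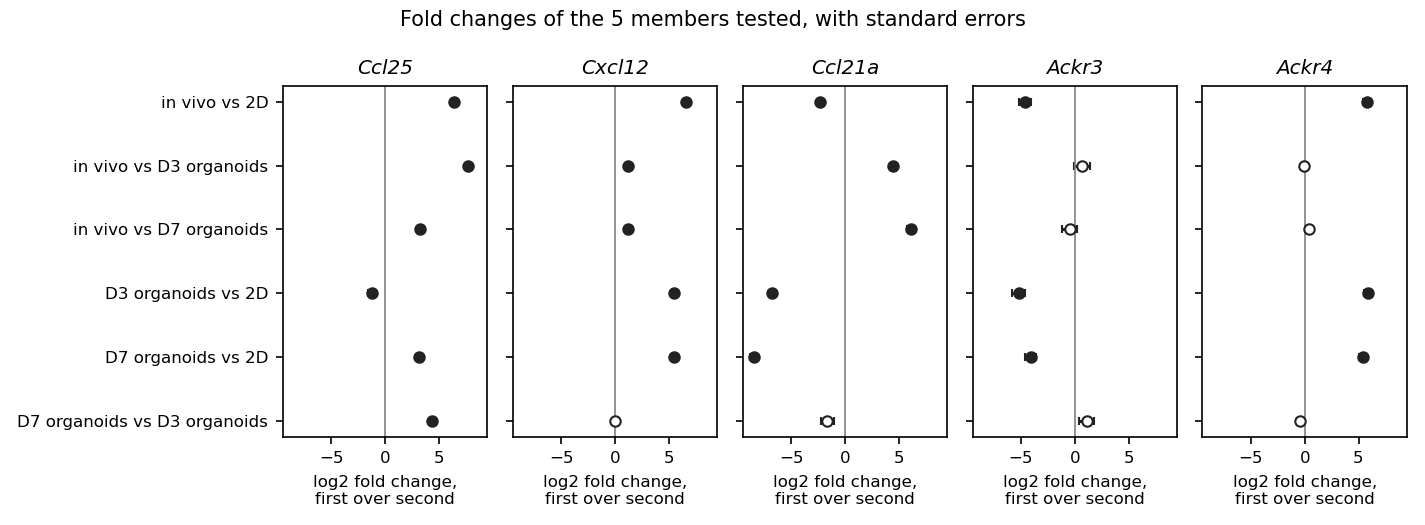
Log2 fold change (first group over second) of the 5 tested members in the 6 comparisons. Bars are standard errors, filled points passed an adjusted p of 0.05 and open points did not. *Cxcl12* and *Ackr4* lie to opposite sides of *Ccl21a* and *Ackr3* in the comparisons of 2D with other groups, and only *Ccl25* has a filled point for D7 against D3 organoids.

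Ligands and scavengers can be set beside each other within a library, where scaling plays no part. *Cxcl12* reads outnumbered *Ackr3* reads in native cells, with 413 and 1038 reads of *Cxcl12* for each of *Ackr3*, and in organoids, with 752 and 314.5 at day 3 and 166 and 244 at day 7. In 2D the order turned, with 0.279 and 0.226. These ratios rest on few *Ackr3* reads outside 2D. There were 5.30 and 4.08 *Ccl25* reads for each *Ackr4* read *in vivo* and 2.08 and 8 in 2D. The ratio was 0.0329 and 0.0137 in D3 organoids and 0.663 and 0.611 in D7 organoids, so that the scavenger outnumbered this ligand in organoids at both days. For *Ccl21a* the ratio to *Ackr4* was 0.196 and 0.158 *in vivo*, at most 0.00987 in organoids, and 28.2 and 153 in 2D.

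Comparison by comparison, 5 of the 5 members tested passed between *in vivo* TECs and 2D, against 41.6% of all genes tested, with 3 higher *in vivo* (21.7% of all genes) and 2 higher in 2D (19.9%). D3 organoids and 2D differed in 5 of 5 (38.3% of all genes), 2 higher in organoids (19.3%) and 3 higher in 2D (19.1%). D7 organoids and 2D also differed in 5 of 5 (45.5%), 3 higher in organoids (24.4%) and 2 higher in 2D (21.1%). Against native cells the organoids differed in 3 of 5 at each day, *Ccl25*, *Cxcl12* and *Ccl21a*, all higher *in vivo*. Over all genes 28.2% were called at day 3 (14% higher and 14.1% lower *in vivo*) and 34.8% at day 7 (16.8% higher and 18% lower *in vivo*). Between the organoid days 1 of 5 passed, *Ccl25*, against 20.8% of all genes (10.9% higher and 9.91% lower at day 7), and under 3 alternatives *Ackr4* passed as well. With 5 genes tested, these shares are given as a description.

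The signalling receptors of the ligands were low throughout. *Cxcr4*, the receptor of CXCL12 on thymocytes and progenitors, had 98 and 51 reads *in vivo*, 0 and 0 in 2D, 40 and 37 in D3 organoids and 21 and 26 in D7 organoids. The 2D level was thus below all others. With the floor at 3 counts per library, *Cxcr4* exceeded 2D at least 22-fold *in vivo*, at least 10.8-fold at day 3 and at least 7.03-fold at day 7 of organoid culture, and it passed the test in each (edgeR adjusted p = 1.13e-05, 9.25e-05 and 3.03e-04). *In vivo* against D7 organoids it also passed (log2 fold change 1.67 ± 0.56, edgeR adjusted p = 0.0287), but not without *in vivo* replicate 1 (0.92, adjusted p = 0.344) or D7 replicate 1 (1.23, adjusted p = 0.220). *Ccr9*, the receptor of CCL25, held 24 and 25 reads *in vivo* and 3 to 12 in the cultured libraries and passed no comparison. *Ccr7* held at most 3 reads in any library. The thymocyte marker sum given above was high only *in vivo*, and it was 3.72 to 4.75 CPM in D3 organoids, in which *Cxcr4* was at 5.97 ± 1.12 CPM (SD, n = 2) and the thymocyte genes held 18 and 20 reads of *Lck*, 1 and 8 of *Ptprc*, 1 and 3 of *Rag1* and 0 of *Ptcra*. The part of thymocytes in the levels of *Cxcr4* and *Ccr9* was not tested.

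**Figure D3:**
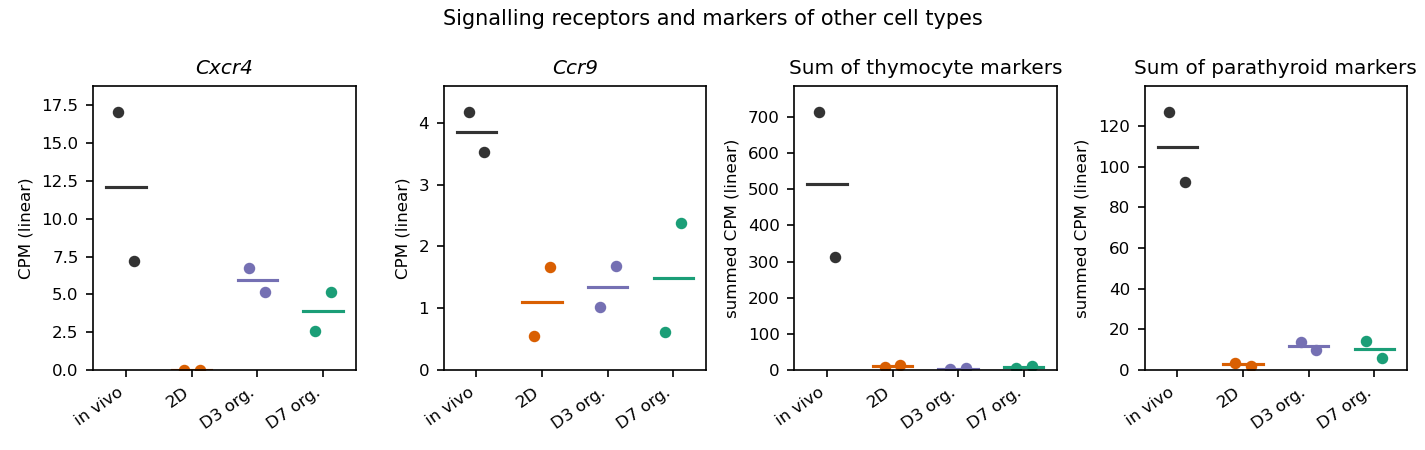
Level of *Cxcr4* and *Ccr9* and the summed level of 12 thymocyte and 4 parathyroid markers in the 8 libraries, in CPM on linear axes that start at 0. Points are single libraries and horizontal lines are group means (n = 2). Both marker sums are highest *in vivo*, and *Cxcr4* is at 0 in 2D but at 5.97 CPM in D3 organoids, where thymocyte markers are low.

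Of 5 other atypical or decoy-like receptors, *Ackr1*, *Gpr182* and *Cmklr2* were at 0 counts in every library. *Pitpnm3* was below the filter with a mean of 0.485 CPM over the 8 libraries, and only *Ccrl2* was tested. *Ccrl2*, which binds chemerin, held 21 and 12 reads *in vivo*, 4 and 19 in 2D, 1 and 2 in D3 organoids and 20 and 13 in D7 organoids. It was lowest in D3 organoids (edgeR adjusted p = 0.0317 against *in vivo*, 0.0415 against 2D and 0.0450 against D7 organoids), and each of these calls was lost under several alternatives, limma-voom among them.

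Other ligands of the scavengers were measured in the same libraries. Of 10 ligands of ACKR2, 2 were tested, and 1 passed between *in vivo* and 2D, lower *in vivo*, as did 19.9% of all genes. This was *Ccl2*, a chemokine that attracts monocytes, with 53 and 89 reads in 2D against 0 to 9 in any other library (log2 fold change *in vivo* over 2D -4.74 ± 0.85, edgeR adjusted p = 2.43e-04). *Ccl5*, which attracts T cells, held 0 to 22 reads and passed no comparison. Of 5 other ligands of ACKR3 or ACKR4, 4 were tested, and 3 were lower in organoids of each day than *in vivo*, against 14% of all genes at day 3 and 16.8% at day 7. *Adm*, which encodes the vasodilator peptide adrenomedullin and is cleared by ACKR3, was at 24.7 ± 5.87 CPM *in vivo*, 20.2 ± 4.64 CPM in 2D, 2.38 ± 0.98 CPM in D3 organoids and 3.04 ± 1.85 CPM in D7 organoids (SD, n = 2 each). Its log2 fold change *in vivo* over D3 organoids was 3.34 ± 0.43 (edgeR adjusted p = 1.23e-05), while *in vivo* and 2D libraries overlapped (edgeR adjusted p = 0.544). *Mif*, a cytokine that binds CXCR4 and ACKR3, moved less, from 162.5 ± 18.7 CPM *in vivo* to 96.6 ± 12.5 CPM in D3 organoids (SD, n = 2 each, edgeR adjusted p = 0.00263).

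Of 5 other constitutive epithelial chemokines, 4 were tested and 1 passed between *in vivo* and 2D, against 41.6% of all genes. *Cxcl16*, a membrane-bound ligand of CXCR6, was at 72.8 ± 2.10 CPM in 2D and 6.32 ± 2.04 CPM *in vivo* (SD, n = 2 each), a log2 fold change *in vivo* over 2D of -3.51 ± 0.33 (edgeR adjusted p = 1.88e-07). It was thus high in the group in which *Ccl21a* was high. *Cx3cl1*, the ligand of CX3CR1, lay between 20.4 and 44.4 CPM in all 8 libraries, and it was higher in D3 organoids than *in vivo* (log2 fold change *in vivo* over D3 organoids -1.04 ± 0.23, edgeR adjusted p = 0.00264).

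Atypical receptors are regulated by arrestins and receptor kinases, and DPP4 cleaves CXCL12. Of 7 such genes, all tested, 4 were higher *in vivo* than in 2D (21.7% of all genes) and 0 lower (19.9%), with a median log2 fold change of 2.80 against 0.06 over all genes. D3 organoids exceeded 2D in 3 of 7, against 19.3% of all genes, and fell below in 0, against 19.1%. D7 organoids exceeded 2D in only 2 of 7, against 24.4% of all genes, and fell below in 0, against 21.1%. *Grk3*, a kinase that turns CXCR4 off, followed *Cxcl12* and *Ackr4* in being low in 2D, at 2.31 ± 1.72 CPM against 32.5 ± 3.89 CPM *in vivo*, 41.0 ± 3.65 CPM in D3 organoids and 73.4 ± 0.29 CPM in D7 organoids (SD, n = 2 each). Its log2 fold change *in vivo* over 2D was 3.81 ± 0.34 (edgeR adjusted p = 7.13e-08), and 3.20 without 2D replicate 1 or 4.87 without 2D replicate 2. *Grk6*, a related kinase, lay between 17.5 and 34.8 CPM throughout and did not pass between *in vivo* and 2D (edgeR adjusted p = 0.635).

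Of 13 transcription factors and signalling genes known to act on thymic chemokines or the thymus rudiment, 12 were tested. Between *in vivo* and 2D, 8 were higher *in vivo* (21.7% of all genes) and 0 lower (19.9%), with a median log2 fold change of 0.86 against 0.06 over all genes. D3 organoids exceeded 2D in 6 (19.3% of all genes) and fell below in 2 (19.1%). D7 organoids exceeded 2D in 10 (24.4% of all genes) and fell below in 0 (21.1%). Against native cells, D7 organoids were lower in 6 (16.8% of all genes) and higher in 4 (18%). *Foxn1*, the master regulator of TEC differentiation, held 1287 and 1945 reads *in vivo*, 47 and 26 in 2D, 52 and 69 in D3 organoids and 489 and 431 in D7 organoids. *Ccl25* and *Foxn1* were thus both low in 2D and D3 organoids and intermediate at day 7, but not in fixed proportion. There were 3.47 and 2.52 *Ccl25* reads for each *Foxn1* read *in vivo*, 1.15 and 1.54 in 2D, 0.577 and 0.246 in D3 organoids and 1.37 and 0.803 in D7 organoids. The difference in *Foxn1* between D3 organoids and 2D did not pass the test (0.46 ± 0.30, edgeR adjusted p = 0.233). *Pax1*, a pharyngeal pouch factor, was highest *in vivo*, at 1320 ± 107 CPM against 357 ± 28.6 CPM in 2D (SD, n = 2 each, edgeR adjusted p = 2.74e-08).

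Beyond chemokines, 12 genes that serve the entry of progenitors or the exit of thymocytes were listed and 11 were tested. Between *in vivo* and 2D, 6 were higher *in vivo* (21.7% of all genes) and 3 lower (19.9%), with a median log2 fold change of 1.58 against 0.06 over all genes. D3 organoids exceeded 2D in 3 (19.3% of all genes) and fell below in 5 (19.1%). D7 organoids exceeded 2D in 4 (24.4%) and fell below in 4 (21.1%). *Kitl*, the stem cell factor that sustains early thymic progenitors, resembled *Ackr4* in its levels, at 179.5 ± 1.82 CPM *in vivo*, 15.5 ± 2.04 CPM in 2D, 193 ± 6.44 CPM in D3 organoids and 193.5 ± 11.9 CPM in D7 organoids (SD, n = 2 each). Its log2 fold change *in vivo* over 2D was 3.54 ± 0.18 (edgeR adjusted p = 8.64e-11), and the difference between native cells and organoids did not pass the test at day 3 (edgeR adjusted p = 0.661) or day 7 (edgeR adjusted p = 0.623). *Sgpl1*, the lyase that degrades sphingosine 1-phosphate and so keeps it low inside the thymus, was at 348.5 ± 20.4 CPM *in vivo* and fell in all cultures, to 80.6 to 116 CPM on average (edgeR adjusted p between 1.27e-07 and 1.63e-06 against *in vivo*).

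The genes whose course was most like that of each member were found by Pearson correlation of log2 CPM over the 8 libraries, among 10361 genes with at least 10 CPM in a group. The values are given as a description, because the 8 points fall into 4 groups and share library preparation and scaling. For *Ccl25* these were *Ppm1h* (r = 0.992), *Exoc3l4* (r = 0.989) and *Neurl2* (r = 0.988), while *Foxn1* reached 0.957. For *Cxcl12* they were *Eid1* (r = 0.998), *Tgfbr3* (r = 0.995) and *Nhs* (r = 0.995). *Tgfbr3*, a coreceptor for TGFβ, had 63.5 CPM *in vivo*, 1.56 CPM in 2D and 42.7 and 41.0 CPM in D3 and D7 organoids. For *Ccl21a* they were *Srxn1* (r = 0.997), *Krt8* (r = 0.996), which encodes a keratin of simple epithelia, and *Fn1* (r = 0.993), which encodes the matrix protein fibronectin. *Fn1* rose from 697 CPM *in vivo* to 3959 CPM in 2D and was at 52.6 and 27.3 CPM in D3 and D7 organoids. For *Ackr3* they were *Rab11fip5* (r = 0.995), *Afap1l1* (r = 0.987) and *Car5b* (r = 0.987). For *Ackr4* they were *Cntln* (r = 0.994), *Spc25* (r = 0.994) and *Cmc2* (r = 0.991). *Spc25*, a kinetochore subunit used in cell division, had 124 CPM *in vivo*, 22.4 CPM in 2D, 152 CPM in D3 organoids and 115 CPM in D7 organoids. With ranks in place of values, 1 of the 3 genes was shared for *Cxcl12* and for *Ackr3* and 0 for the other 3 members.

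**Figure D4:**
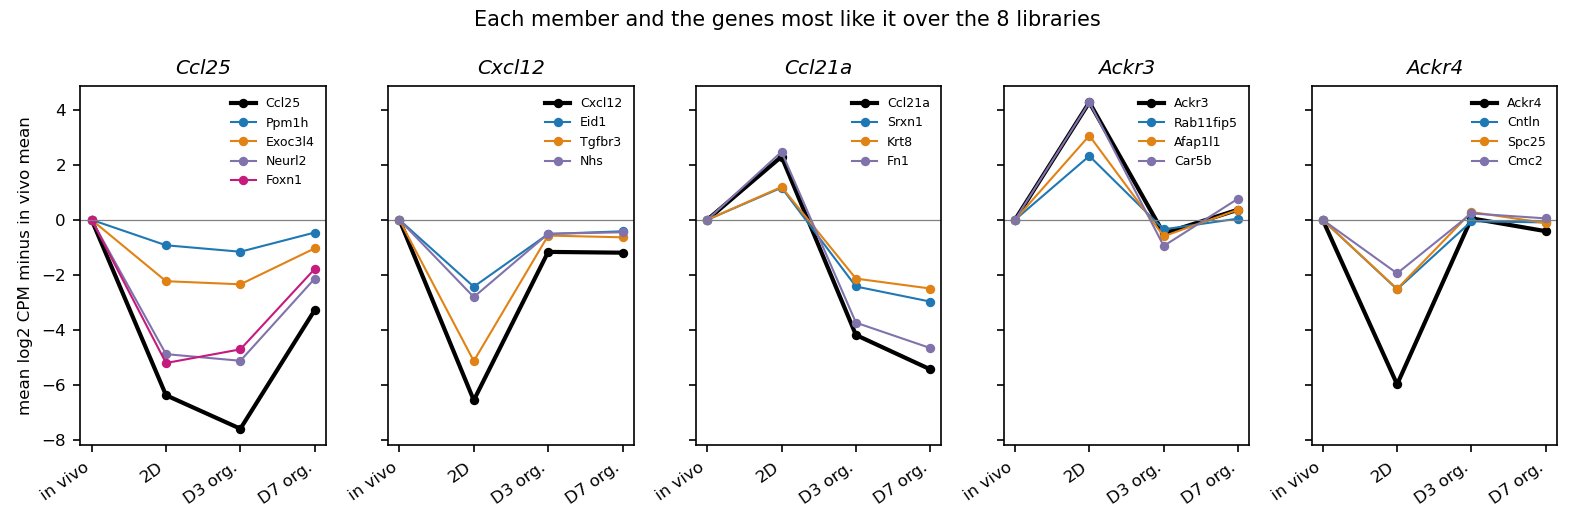
Mean log2 CPM of each tested member and of the 3 genes most like it, relative to the *in vivo* mean, in the 4 groups (n = 2 each), with *Foxn1* added for *Ccl25*. In D3 organoids the mean of *Ccl25* lies below that in 2D, a call lost under some alternatives. The mean of *Foxn1* lies above that in 2D, but this difference did not pass the test (edgeR adjusted p = 0.233). *Cxcl12* and *Ackr4* have their lowest means in 2D.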

How the data were processed

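Bulk RNA sequencing covered 8 libraries, 2 biological replicates in each of 4 groups taken from the sample labels. The authors prepared them with the QuantSeq 3′ method, sequenced them on a NextSeq 500 and used STAR to align reads to GRCm39, and they deposited raw counts of reads per Ensembl gene, with no normalization. The annotation release, the strand setting and how multiply mapped reads were counted are not given in the sources used here. A GENCODE annotation of GRCm39 paired 56236 of 56923 gene IDs with symbols, and 687 had no match. Promoter windows came from RefSeq (GRCm38.p6). The submitters' notes name R 4.1.2, edgeR and limma, and the study tested with limma-voom.

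Counts were analysed in R 4.3.3 with edgeR 4.0.16 (quasi-likelihood test, all 8 libraries in 1 model of 4 groups, TMM factors of 0.880 to 1.09), DESeq2 1.42.0 and limma 3.58.1, with tables handled by pandas 2.3.3 under Python 3.11.15. Genes reaching 1 CPM in 3 or more libraries were tested, and p-values were adjusted by Benjamini-Hochberg with a threshold of 0.05. A library's floor of detection was 3 counts, and such floors cover counting error only, since reads are not independent molecules. The procedure was tested on simulated counts in which a small set of genes was raised in 2D only. The real data differ from this, with many genes called in both directions. Alternatives were DESeq2's size factors, library size only, no filter, a mean of at least 10 CPM, DESeq2's Wald test, limma-voom, only the 2 groups compared, a replicate block, and each library left out in turn.

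All 7 members were named. Other genes are the 2 most abundant of each list, those on which a result turns, and the 3 most correlated with each tested member. 1 gene that this rule names is not reported here. The members and lists were chosen with earlier results of these data known.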

Additional observations from a re-analysis of the deposited data

How the results depend on the processing

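Of the 30 fold changes of members, directions held under all alternatives that kept every library, except for *Cxcl12* between D7 and D3 organoids, which was 0.015 with a mean of at least 10 CPM. Leaving out 1 library at a time also turned 4 directions. *Cxcl12* between D7 and D3 organoids ranged from -0.10 to 0.045 (highest without D7 replicate 2). *Ackr3* ranged from -0.10 (without *in vivo* replicate 1) to 1.37 for *in vivo* over D3 organoids and from -1.23 to 0.040 (without *in vivo* replicate 2) for *in vivo* over D7 organoids. *Ackr4* *in vivo* over D3 organoids ranged from -0.18 to 0.048 (highest without *in vivo* replicate 1). None of these differences passed the test with all libraries either. Members called between D7 and D3 organoids numbered 1, and 2 with no filter, with limma-voom and with only the 2 groups compared. Without single libraries, genes called numbered 3031 to 5062 between *in vivo* and D7 organoids (5042 with all, 3031 without D7 replicate 2) and 1217 to 3414 between D7 and D3 organoids (3012 with all, 1217 without D7 replicate 2 and 1674 without D3 replicate 1). In these fits the single library left in a group is assumed to vary like those of the other groups. The cause was not tested.

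Scaling by library size alone shifted the median log2 fold change of all genes by 0.18, 0.26 and 0.20 for *in vivo*, D3 organoids and D7 organoids over 2D. The higher and lower calls then numbered 3802 and 2221 (3150 and 2883 with TMM), 3872 and 1886 (2798 and 2764), and 4340 and 2315 (3546 and 3059). Member calls were the same. Libraries with the same replicate number deviated together only weakly, with correlations of 0.03 to 0.13 over genes between groups, so the numbers were not taken as pairs. With a replicate block, genes called *in vivo* against 2D numbered 6366 instead of 6033, and no member call changed. Over the alternatives, the calls on other named genes were lost in 59 of 774 repeats, and counts over the gene lists moved by more than 1.5 times in 141 of 1506. With 2 libraries a group and few reads, no difference in *Ackr2*, and none in *Ackr3* outside 2D, was detectable at this depth.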
